A study of Mus musculus with 12 samples.

Results

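The 10 genes described here are the immediate early and AP-1 genes Fos, Fosb, Jun, Junb, Jund, Egr1, Atf3, Ier2, Ier3 and Myc. They were chosen by name, with earlier results of these data known, among the 55416 genes listed in each of 2 tables. All 10 were found in both. The tables hold RNA-seq values of liver and of duodenum (labelled intestine) from male C57BL6/J mice that were 8 weeks old at the start and were injected under the skin every day for 8 weeks with CORT (corticosterone, the main glucocorticoid of rodents) at 40 mg/kg or with vehicle (Veh), with 3 CORT and 3 Veh libraries in each tissue. Both groups received the injections, the vehicle holds DMSO and Tween-80, and whole pieces of tissue were used, so fewer cells of a type and less RNA per cell cannot be told apart. Neither the hours between the last injection and collection nor whether liver and duodenum of a given number came from 1 mouse is given in the sources used here.

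Immediate early genes are transcribed shortly after a cell receives a growth factor, stress or other signal, from factors that are already present, such as serum response factor and CREB. FOS and JUN proteins pair through leucine zippers into AP-1, a dimer that binds DNA, and EGR1, ATF3 and MYC are transcription factors as well. In the liver these genes are known for their part in regeneration and in the response to feeding and injury, and in the gut MYC and JUN act in the growth of crypt cells. The glucocorticoid receptor is known to hold back AP-1 by contact between the proteins and to induce the phosphatase gene Dusp1, whose product switches MAP kinases off.

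The upstream promoter windows of Fos, Junb and Atf3 are printed because transcription of immediate early genes is started through such short elements. Fos and Junb are the AP-1 subunits with the largest differences in liver, and Atf3 did not share that direction. None of the 3 passed the liver test given below (limma adjusted p = 0.182, 0.0622 and 0.528). No window was found for Egr1 and Ier2, which passed, and a link between windows and direction was not tested. The printed windows are RefSeq sequences of the GRCm38.p6 build, 5′ to 3′ on the gene's strand, the 250 bases before the annotated start. The submitters' processing notes name GRCm39 for the expression values. The Fos window is chr12:85473640-85473889 (plus strand), the Junb window chr8:84978749-84978998 (minus strand) and the Atf3 window chr1:191183334-191183583 (minus strand). Capitals mark TGACG, the core of the cAMP response element that CREB and ATF proteins bind, in either orientation, the CCAAT box and the TATA box TATAAA.
Fos: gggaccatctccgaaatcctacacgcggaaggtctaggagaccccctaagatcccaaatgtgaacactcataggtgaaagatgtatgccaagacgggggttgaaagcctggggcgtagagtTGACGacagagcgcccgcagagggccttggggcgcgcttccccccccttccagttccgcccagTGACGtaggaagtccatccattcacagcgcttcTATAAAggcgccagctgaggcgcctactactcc
Junb: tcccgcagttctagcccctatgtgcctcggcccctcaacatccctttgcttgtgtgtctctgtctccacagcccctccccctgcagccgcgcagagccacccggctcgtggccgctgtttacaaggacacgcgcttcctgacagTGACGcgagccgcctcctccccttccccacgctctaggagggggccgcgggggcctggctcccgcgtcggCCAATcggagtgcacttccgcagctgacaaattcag
Atf3: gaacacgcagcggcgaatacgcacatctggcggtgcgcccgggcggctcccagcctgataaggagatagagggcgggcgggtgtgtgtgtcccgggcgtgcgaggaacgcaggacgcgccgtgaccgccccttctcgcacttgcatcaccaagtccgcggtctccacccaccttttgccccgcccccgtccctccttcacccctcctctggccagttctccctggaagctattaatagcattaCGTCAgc

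Windows were found for 7 of the 10 members (Fos, Fosb, Jun, Junb, Jund, Atf3 and Ier3). TGACG on either strand stood in 4 of the 7 (Fos, Fosb, Junb and Atf3), against 17.9% of 27025 windows of the same length. In Fos it occurred at 129 to 125 and at 66 to 62 bases before the start, in Junb at 106 to 102, in Fosb at 60 to 56 and in Atf3, on the other strand, at 7 to 3. The full element TGACGTCA, which holds that core, was in 0 of the 7 windows and in 1.62% of all. Among the 7 windows CCAAT stood in 3 (Jun, Junb and Ier3), against 34.5% of all windows, and TATAAA in 1 (Fos), against 13%. The AP-1 site TGANTCA was in 0 of the 7 (6.87% of all), the CArG box of serum response factor in 0 (1.40%), the MYC site CACGTG in 0 (6.05%) and the palindromic glucocorticoid response element in 0 (0.0037%). The EGR site GCGNGGGCG was in 1 of the 7 (Fosb) and in 4.65% of all. Only these letters were searched, on both strands in these windows, so variants of them and elements outside the windows would be missed.

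The deposited values are TPM, transcript abundances corrected for transcript length and scaled so that every library has nearly the same sum, and they do not tell how deeply a library was sequenced. Between 17897 and 20446 genes were above 0 per library. The treatment was seen in Fkbp5, a gene induced by glucocorticoids, which was at 220.88 to 273.03 TPM in the CORT livers against 7.14 to 19.51 in the Veh livers. In the duodenum it was at 251.83 to 379.08 TPM against 8.68 to 23.33. The hepatocyte markers summed to 119162 to 148417 TPM in liver and the enterocyte markers to 25705 to 48767 TPM in duodenum, as the labels say. The duodenum libraries Veh2 and Veh3 were rich in pancreatic acinar transcripts, whose 37 listed genes took up 5.13% and 4.43% of their TPM, while in the other 4 they took up 0.322% to 0.555%. Among the livers, Veh2 had the highest sum of lymphocyte markers (11.3 TPM, against 1.03 to 5.74) and CORT3 the highest sum of heat shock genes (2919 TPM, against 881 to 1420). Veh2 also had the highest smooth muscle sum of the livers (25.8 TPM, against 4.88 to 17.7). Among the Veh livers it had the highest endothelial sum (76.0 TPM, against 29.0 and 40.6). The same held for the fibroblast and stellate sum (149 TPM, against 54.7 and 92.5). Of 6 genes induced by glucocorticoids, 3 rose in liver (Fkbp5, Zbtb16 and Sgk1) and 3 in duodenum (Fkbp5, Zbtb16 and Tsc22d3). Zbtb16 was at 0.16 to 0.84 TPM in Veh duodena and was tested there only through its CORT mean of 9.91 TPM. Of 10 heat shock genes 1 rose in liver (Bag3) and 0 in duodenum, where 1 had an unadjusted p under 0.05 in limma. Over all genes tested, 4.91% rose in liver and 1.23% in duodenum.

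In the liver, Egr1 and Ier2 fell with CORT, and for Junb and Jund the CORT values all lay below the Veh values without passing the test. Expression was compared as log2(TPM + 1) with limma, and to pass, a gene needed a Benjamini-Hochberg adjusted p up to 0.05 together with a change of more than 1.5-fold. Of the 10 members, 9 reached a mean of 1 TPM in either group of livers and were tested, and 2 of the 9 passed, both lower, where 2.01% of all 11699 genes tested passed as lower, 4.91% as higher and 6.92% in either direction. Those were 575 genes that rose and 235 that fell, a split that median-ratio scaling moved to 543 and 468. The log2 fold change was below 0 for 7 of the 9, as for 41.6% of all genes. For 4 of the 9 members all CORT values lay below all Veh values, against 11.6% of all genes tested, and for 0 members all lay above, against 20.6%. The median log2 fold change was -1.09 over the 9 members and 0.08 over all genes tested.

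Egr1 (ENSMUSG00000038418), a zinc finger transcription factor, was at 69.84, 28.72 and 17.88 TPM in liver Veh1, Veh2 and Veh3 and reached 0.62, 1.59 and 4.65 TPM in CORT1, CORT2 and CORT3. The highest CORT value lay below the lowest Veh value, although the Veh values themselves differed 3.91-fold. The mean was 2.29 ± 2.10 TPM (SD, n = 3) with CORT and 38.8 ± 27.4 TPM (SD, n = 3) with vehicle, 17-fold lower with CORT. Egr1 fell by 3.57 on the log2(TPM + 1) scale (standard error 0.59, limma adjusted p = 0.0186). Egr1 passed in 4 of the 6 fits with 1 library omitted and in 5 of the 7 other alternatives, and its limma adjusted p lay between 0.0172 and 0.0725 over all of them. The losses included those without CORT1 and without CORT2 (0.0572 and 0.0560). The fold between the means was 35.1 without CORT3 and 10.2 without Veh1. Its log2 fold change lay between -4.06 and -3.04 whichever library was omitted.

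Ier2 (ENSMUSG00000053560), a small nuclear regulator of transcription, varied little within the Veh livers, at 32.38, 31.90 and 29.66 TPM. In CORT1, CORT2 and CORT3 it was at 11.20, 13.58 and 17.80 TPM, all below the Veh values. The means were 14.2 ± 3.34 TPM (SD, n = 3) with CORT and 31.3 ± 1.45 TPM (SD, n = 3) with vehicle, 2.21-fold lower with CORT. Ier2 fell by 1.11 on the log2 scale (standard error 0.17, limma adjusted p = 0.0164). Omitting 1 library at a time, it passed without Veh2 and without CORT3 and missed the limit in the other 4 fits, and its adjusted p over all alternatives was between 0.0134 and 0.0603.

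Of the JUN family, Junb (ENSMUSG00000052837), an AP-1 subunit that is a weaker activator than JUN, was at 65.16, 95.25 and 56.50 TPM in the Veh livers and at 8.49, 12.42 and 39.97 TPM in the CORT livers. CORT1 and CORT2 were far below the Veh range, while CORT3 came closer to it, and the groups did not overlap. The mean was 20.3 ± 17.2 TPM (SD, n = 3) with CORT and 72.3 ± 20.3 TPM (SD, n = 3) with vehicle, 3.56-fold lower with CORT. The log2 fold change of Junb was -2.04 (standard error 0.52, limma adjusted p = 0.0622), which did not pass. Without CORT3 the limma adjusted p of Junb was 0.00703, and with libraries scaled by the median of their ratios it was 0.0481, and both passed. In the other 5 fits with 1 library omitted it was 0.125 to 0.153 and did not pass. The fold between the means was 6.92 without CORT3.

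Jund (ENSMUSG00000071076), the JUN family member that is expressed in most resting cells, was at 59.61, 93.26 and 58.74 TPM in the Veh livers and at 51.80, 39.25 and 49.75 TPM in the CORT livers. The groups did not overlap, but the gap between 51.80 and 58.74 TPM was small beside the spread of the Veh values. Its log2 fold change was -0.55 (standard error 0.21, limma adjusted p = 0.161). Jun (ENSMUSG00000052684) itself, the founding member, was at 21.38, 20.28 and 21.73 TPM with vehicle and at 18.07, 10.89 and 21.43 TPM with CORT. CORT3 lay within the Veh range and Jun had a log2 fold change of -0.36 (95% interval -0.91 to 0.19, limma adjusted p = 0.373).

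Fos (ENSMUSG00000021250), the main partner of JUN, was low in liver, at 8.34, 10.10 and 2.01 TPM with vehicle and 0.46, 0.38 and 4.32 TPM with CORT. CORT3 exceeded Veh3, so the groups overlapped, and the log2 fold change was -1.62 (95% interval -3.20 to -0.05, limma adjusted p = 0.182). With 1 library omitted it lay between -2.26, without CORT3, and -1.27, without Veh2, and Fos passed in none of the 6 fits (limma adjusted p 0.0818 to 0.378). Fosb, a paralogue of Fos, was at 0.03 and 0.13 TPM in Veh1 and Veh2, listed at 0 in Veh3 and at 0.31, 0.05 and 0.17 TPM with CORT, too low in liver to be tested.

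Myc (ENSMUSG00000022346), which drives growth and ribosome production, was set apart by 1 library, at 1.20, 44.62 and 3.95 TPM in the Veh livers and at 3.37, 2.45 and 2.44 TPM in the CORT livers. The log2 fold change of -1.09 (95% interval -3.44 to 1.27, limma adjusted p = 0.527) turned to 0.18 without Veh2, so no direction can be given for Myc. Atf3 (ENSMUSG00000026628), a repressor induced by stress, was at 0.49, 2.47 and 0.27 TPM with vehicle and at 1.32, 0.91 and 3.15 TPM with CORT, and the groups overlapped. Ier3 (ENSMUSG00000003541), which modulates cell survival, was at 0.45, 1.61 and 0.85 TPM with vehicle and at 1.6, 1.5 and 2.04 TPM with CORT, and it was tested only because its CORT mean exceeded 1 TPM. Both had a log2 fold change of 0.50 (limma adjusted p = 0.528 and 0.269).

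**Figure D1:**
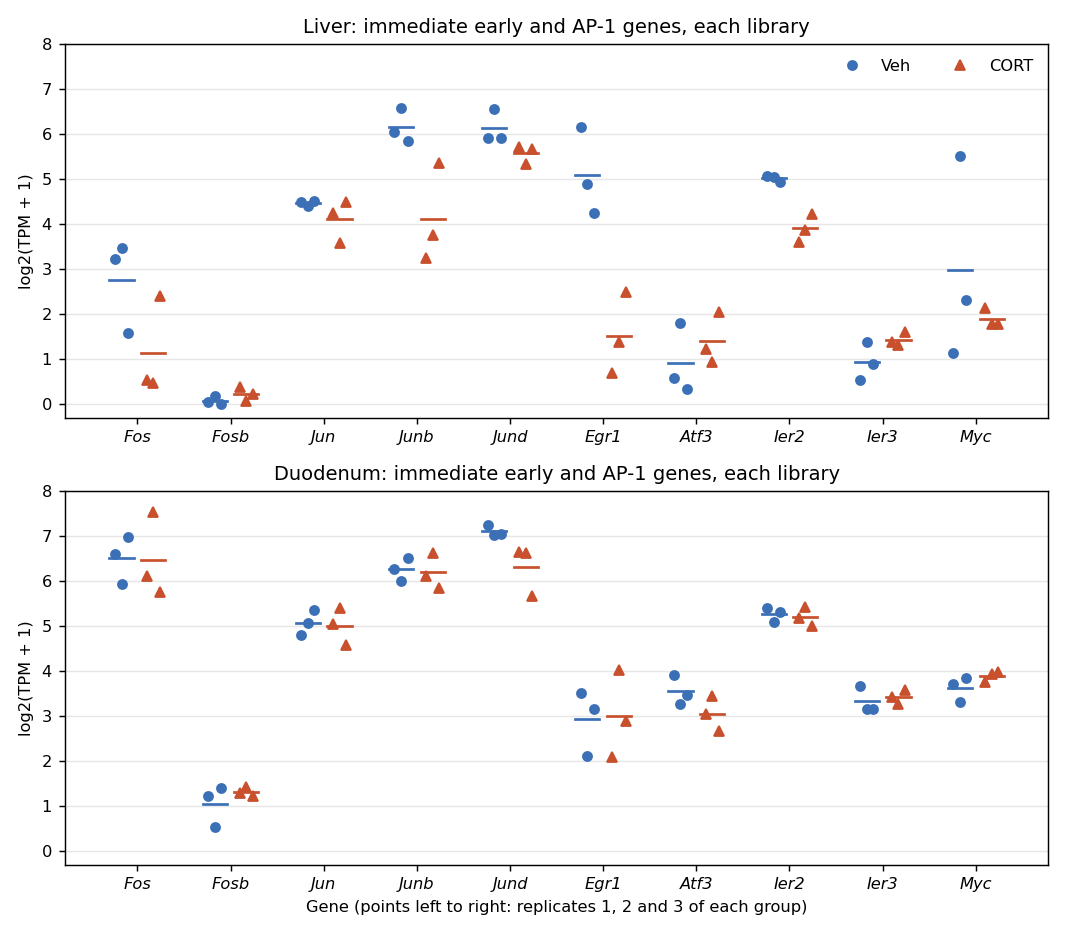
Level of each gene in each library as log2(TPM + 1), in liver (top) and duodenum (bottom), with circles for Veh, triangles for CORT and a line at the group mean of the 3 libraries. In liver the CORT points of Egr1, Ier2, Junb and Jund lie below all Veh points, and in duodenum this is seen for Jund.

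In the duodenum, none of the members passed. All 10 were tested there, and 0 of 10 passed in limma, against 2.15% of all 13607 genes tested (1.23% higher and 0.919% lower). An unadjusted limma p under 0.05 was found for 1 of 10 members and for 2618 of all 13607 genes. That number is the background for the unadjusted counts of the other duodenum lists too. For 1 member, Jund, all CORT values lay below all Veh values, against 14.3% of all genes tested, and for 0 all lay above, against 12.2%. The log2 fold change was below 0 for 6 of the 10, as for 51.5% of all genes. The median log2 fold change was -0.05 over the 10 members and -0.01 over all genes tested.

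Jund was at 150.41, 130 and 130.89 TPM in duodenum Veh1, Veh2 and Veh3 and at 99.10, 97.50 and 49.71 TPM in CORT1, CORT2 and CORT3. It was thus lower in each CORT library, with CORT3 the lowest. The mean was 82.1 ± 28.1 TPM (SD, n = 3) with CORT and 137 ± 11.5 TPM (SD, n = 3) with vehicle, and the log2 fold change was -0.80 (standard error 0.27, limma adjusted p = 0.182), which did not pass.

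Fos was the member with the widest CORT range in duodenum on the TPM scale, at 68.68, 184.20 and 53.30 TPM with CORT and at 96.60, 60.27 and 126.15 TPM with vehicle. The CORT values enclosed all Veh values, and the log2 fold change was -0.04 (95% interval -1.18 to 1.10, limma adjusted p = 0.974). Egr1 was at 3.29, 15.33 and 6.48 TPM with CORT and at 10.43, 3.32 and 7.92 TPM with vehicle, again with the highest and the lowest value in the CORT group. Its log2 fold change was 0.08 (95% interval -1.19 to 1.36, limma adjusted p = 0.950), an interval that does not reach the -3.57 of the liver.

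Ier2 was at 35.30, 41.80 and 31.22 TPM with CORT and at 41.18, 33.27 and 39.00 TPM with vehicle in the duodenum. The groups overlapped, with a log2 fold change of -0.07 (95% interval -0.43 to 0.29, limma adjusted p = 0.834). Junb was at 68.30, 97.03 and 57.01 TPM with CORT and at 76.20, 63.31 and 90.62 TPM with vehicle, with a log2 fold change of -0.07 (95% interval -0.60 to 0.47, limma adjusted p = 0.896). Jun was at 31.94, 41.39 and 22.95 TPM with CORT and at 26.84, 32.63 and 39.95 TPM with vehicle. For Ier2, Junb and Jun alike, CORT2 was the highest and CORT3 the lowest of the 6 duodenum libraries.

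Myc, which marks proliferating crypt cells, was at 12.57, 14.43 and 14.86 TPM with CORT and at 12.21, 8.94 and 13.51 TPM with vehicle. The log2 fold change was 0.27 (95% interval -0.14 to 0.67, limma adjusted p = 0.437). Atf3 was at 7.24, 9.92 and 5.34 TPM with CORT and at 14.20, 8.66 and 10.15 TPM with vehicle, with a log2 fold change of -0.51 (95% interval -1.10 to 0.08, limma adjusted p = 0.325). The remaining 2 members, Ier3 (8.64 to 10.90 TPM with CORT, 7.90 to 11.84 with vehicle) and Fosb (1.36 to 1.71 TPM with CORT, 0.45 to 1.64 with vehicle), overlapped between the groups.

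With 3 libraries per group, the smallest two-sided p of an exact permutation test is 0.1, and that value was reached by Egr1, Ier2, Junb and Jund in liver and by Jund in duodenum. With the acinar genes removed from the duodenum libraries and the rest rescaled, 0 of 10 members passed. When Veh2 and Veh3, the acinar-rich libraries, were left out, a setting chosen after seeing the data, 0 of 10 passed as well, with 1 Veh library assumed to vary like the CORT group. In liver, leaving out both Veh2 and CORT3, also chosen after seeing the data, let 3 members pass (Egr1, Junb and Ier2).

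**Figure D2:**
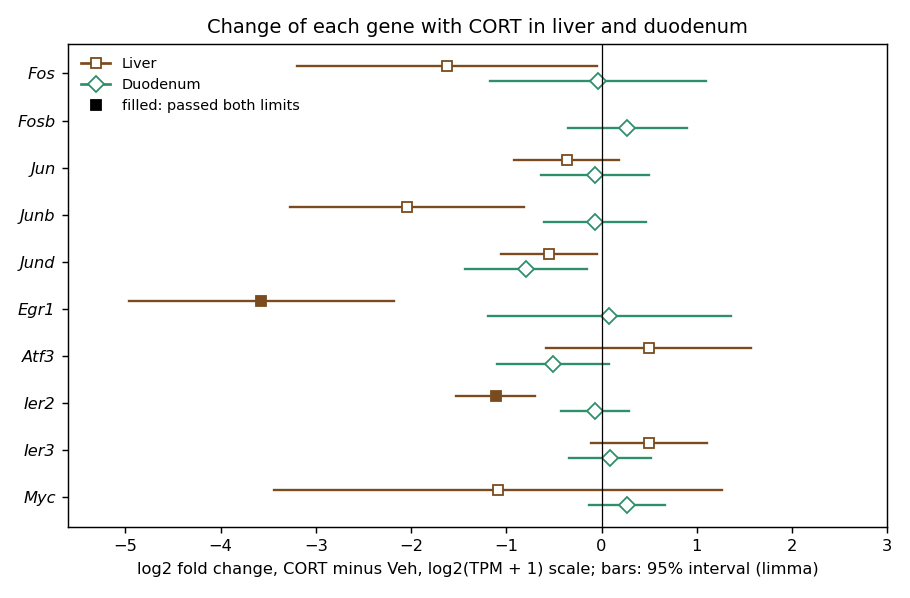
Log2 fold change (CORT minus Veh, log2(TPM + 1) scale) of each gene in liver (squares) and duodenum (diamonds), with 95% intervals from limma and filled symbols for genes past both limits. Egr1 at -3.57 and Ier2 at -1.11 in liver are filled, no duodenum symbol is, and Fosb was not tested in liver.

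Whether the response to CORT differed between the tissues was tested with a treatment by tissue term over all 12 libraries, in which 3.6% of 14806 genes passed, 1.3% with the higher change in duodenum. It passed for 2 of the 10 members, both with the higher change in duodenum, where their CORT and Veh values overlapped. The difference (duodenum change minus liver change) was 3.65 on the log2 scale for Egr1 (standard error 0.89, limma adjusted p = 0.0497) and 1.04 for Ier2 (standard error 0.23, limma adjusted p = 0.0370). For Junb it was 1.98 (95% interval 0.59 to 3.36, limma adjusted p = 0.118), and for Fos 1.58 (95% interval -0.44 to 3.60, limma adjusted p = 0.398), so neither passed. Jund, lower in both tissues, differed by -0.24 (95% interval -1.06 to 0.57, limma adjusted p = 0.778). Omitting 1 library at a time, Egr1 passed in 2 and Ier2 in 3 of 12 fits, with limma adjusted p-values up to 0.113 and 0.0829. Without the acinar-rich duodenum libraries these were 0.247 and 0.193.

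The levels in liver and duodenum come from separate tables and are given side by side as a description, whereas the treatment by tissue term compares differences taken within each table. With vehicle, 7 of the 10 members were higher in every duodenum than in every liver library, which 58.9% of the 14806 genes also were, so the count is near that of all genes. Fos stood at 60.27 to 126.15 TPM in duodenum against 2.01 to 10.10 in liver, with means 13.8-fold apart. Atf3 (mean 10.2-fold higher), Ier3 (9.54-fold) and Fosb (21.5-fold, from below 1 TPM in liver) also had higher means in duodenum, and Jund (1.94-fold), Jun (1.57-fold) and Ier2 (1.21-fold) differed less. Of the 10 members, 1 was lower in every duodenum library, against 17.1% of all genes, and this was Egr1, at 3.32 to 10.43 TPM against 17.88 to 69.84, while Junb and Myc overlapped. With CORT, 8 of the 10 were higher in every duodenum library, against 56.3% of all genes, and 0 were lower, against 17.5%. Egr1 (3.29 to 15.33 TPM in duodenum, 0.62 to 4.65 in liver) overlapped between the tissues along with Jund.

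By mean TPM, a scale per length, the order in Veh liver was Junb (72.3), Jund (70.5), Egr1 (38.8), Ier2 (31.3), Jun (21.1), Myc (16.6), Fos (6.82), Atf3 (1.08), Ier3 (0.970) and Fosb (0.0533). Neighbours whose 3 values did not overlap were Ier2 and Jun, and Ier3 and Fosb. In CORT liver Jund led (46.9), followed by Junb (20.3), Jun (16.8), Ier2 (14.2) and Myc (2.75), while Egr1 (2.29), Atf3 (1.79), Fos (1.72) and Ier3 (1.71) were near each other. Among neighbours there, Ier2 did not overlap with Myc, nor Ier3 with Fosb (0.177), while Jund and Junb overlapped. In Veh duodenum Jund (137 TPM) and Fos (94.3) came first, without overlap, and Egr1 (7.22) and Fosb (1.15) last, also without overlap. In CORT duodenum the leading genes were Fos (102), Jund (82.1) and Junb (74.1), which overlapped.

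Within a group, the members tended to be high in the same library. In liver, CORT3 was the highest CORT library for 7 of the 9 tested members and Veh2 the highest Veh library for 6 of 9, while CORT2 was the lowest of its group for 5. In duodenum, CORT2 was the highest CORT library for 7 of the 10 members, CORT3 the lowest for 7, and Veh2 the lowest Veh library for 8. How often each library was the highest or lowest over all genes was not counted. These counts therefore cannot be read as particular to the members. Averaged over the 9 members tested in both tissues, the deviation from the group mean on the log2(TPM + 1) scale was 0.56 in liver CORT3, 0.58 in liver Veh2 and 0.41 in duodenum CORT2, and between -0.43 and 0.16 in the other 9 libraries. The liver Veh2 value leans on Myc, which was at 44.62 TPM there against 1.20 and 3.95 TPM in Veh1 and Veh3. The 10 heat shock genes listed summed to 2919 TPM in liver CORT3 against 1025 and 1420 in the other CORT livers, and to 3301 TPM in duodenum CORT2 against 1284 and 1642 in the other CORT duodena. In liver Veh2 the sum was 1104 TPM, within the 881 to 1131 of the Veh livers. The part of this stress signal in the members' values was not tested.

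**Figure D3:**
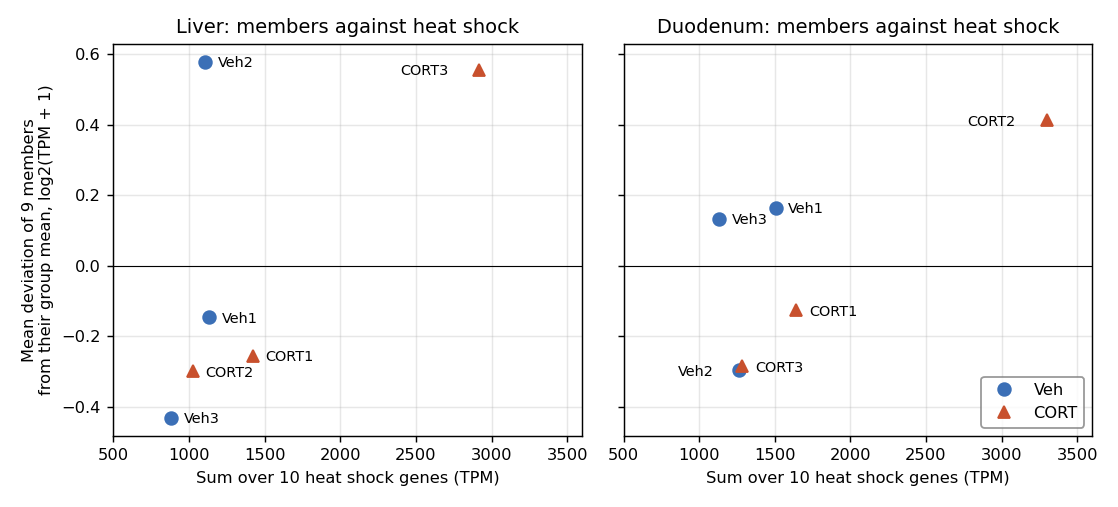
Mean deviation of 9 members from their own group mean (log2(TPM + 1)) against the summed TPM of 10 heat shock genes, 1 point per library, with circles for Veh and triangles for CORT. Liver CORT3 (2919 TPM) and duodenum CORT2 (3301 TPM) lie high on both axes. Liver Veh2 is high for the members at 1104 TPM, a value that leans on Myc.

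The genes most like the members in this respect were sought among 3969 other genes whose mean reached 10 TPM in each tissue. The measure was the Pearson correlation, over the 12 libraries, of the deviation from the group mean with the members' mean deviation, and it is given as a description, since the libraries of a group share the mean that was subtracted. The members' mean deviation holds the Myc value of liver Veh2, and the correlation without Myc was not computed. The 5 highest were Snx5 (r = 0.96), a sorting nexin, Atf1 (0.94), a CREB family factor, Btg2 (0.93), itself an immediate early gene that restrains proliferation, Mfsd1 (0.93), a membrane transporter, and Mcl1 (0.93), a short-lived survival protein. None of the 5 passed for CORT in either tissue (limma adjusted p between 0.198 and 0.933). Btg2 was at 9.64, 39.37 and 6.97 TPM in the Veh livers and at 4.54, 5.08 and 20.65 TPM in the CORT livers, so that Veh2 and CORT3 were again the highest of their groups.

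For the related lists that follow, the background is the share of all genes tested that passed. It was 4.91% higher and 2.01% lower in liver, and 1.23% higher and 0.919% lower in duodenum. Counts as small as those of these lists are not read as particular to a list. Of 13 other genes of the AP-1 and related bZIP families, 9 were tested in liver, and 2 rose and 0 fell, with a median log2 fold change of 0.40. They were Maf, a large MAF factor, at 2.84, 2.53 and 2.82 TPM with vehicle and 7.06, 5.74 and 8.33 TPM with CORT (log2 fold change 1.10, limma adjusted p = 0.0122), and Mafg, a small MAF partner (0.91, limma adjusted p = 0.0330). In duodenum 12 were tested, 0 rose and 1 fell, with a median of 0.05. It was Batf2, a BATF family factor, at 31.57, 30.81 and 29.96 TPM with vehicle and 15.35, 12.48 and 14.21 TPM with CORT, which fell by 1.09 (limma adjusted p = 0.0125). Maf had a lower mean there with CORT (12.8 TPM) than with vehicle (29.1 TPM), which did not pass (limma adjusted p = 0.0731).

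Among 36 other immediate early genes, 28 were tested in liver, and 3 rose and 0 fell, with a median log2 fold change of 0.10. Ccn2, a matricellular growth factor, was at 0.66, 8.55 and 3.29 TPM with vehicle and 27.18, 19.16 and 40.32 TPM with CORT (log2 fold change 2.81, limma adjusted p = 0.0399). Nfil3, a bZIP repressor, rose by 1.64 (limma adjusted p = 0.0303) and Zfp36l2, which destabilises mRNAs, by 0.91 (limma adjusted p = 0.0429). In duodenum 30 were tested, and 2 rose and 0 fell, with a median of 0.22. Bhlhe40, a repressor of the clock, was at 36.91, 35.44 and 40.37 TPM with vehicle and 72.14, 103.97 and 80.88 TPM with CORT (log2 fold change 1.15, limma adjusted p = 0.0248), and Klf10 rose by 0.87 (limma adjusted p = 0.0470).

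Of 15 genes that restrain MAP kinase signalling, most of them phosphatase or Sprouty genes, 11 were tested in liver. Of these, 1 rose and 0 fell, with a median log2 fold change of 0.11. The gene was Dusp1, at 20.78, 43.21 and 20.32 TPM with vehicle and 77.89, 54.38 and 101.28 TPM with CORT, where all CORT values lay above all Veh values (log2 fold change 1.48, standard error 0.34, limma adjusted p = 0.0480). In duodenum 14 were tested, 0 passed and 2 had an unadjusted p under 0.05, with a median of 0.14. The most abundant there were Dusp6 (mean 56.8 TPM with CORT, 39.7 with vehicle, limma adjusted p = 0.321) and Errfi1 (49.1 and 23.8 TPM, limma adjusted p = 0.137). Errfi1, which is neither a phosphatase nor a Sprouty gene, was the most abundant of the list in liver (591 and 297 TPM, limma adjusted p = 0.0746).

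Of 23 kinases and transcription factors that act on immediate early promoters, 22 were tested in liver with a median of 0.10, and 1 rose and 0 fell. This was Mapk14, which encodes the p38 alpha kinase, at 22.00, 28.33 and 20.11 TPM with vehicle and 43.18, 35.57 and 54.81 TPM with CORT (log2 fold change 0.89, limma adjusted p = 0.0460). In duodenum all 23 were tested with a median of 0.06, 0 passed and 2 had an unadjusted p under 0.05. Mapk3, the ERK1 kinase, was at a mean of 197 TPM with CORT and 260 with vehicle (limma adjusted p = 0.265), and Map2k2 at 246 and 200 TPM (limma adjusted p = 0.429).

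Of 13 MYC partners and relatives, 11 were tested in liver with a median log2 fold change of 0.24, and 1 rose and 0 fell. Max, the obligate partner of MYC, was at 9.58, 11.64 and 8.72 TPM with vehicle and 15.58, 18.24 and 17.35 TPM with CORT (log2 fold change 0.72, limma adjusted p = 0.0333). In duodenum all 13 were tested with a median of -0.06, and 0 rose and 1 fell. Mxd1, which competes with MYC for MAX, was at 134.71, 104.85 and 122.46 TPM with vehicle and 57.98, 57.80 and 68.13 TPM with CORT, and fell by 0.96 (limma adjusted p = 0.0273). Of 20 genes activated by MYC, 19 were tested in liver with a median of 0.14, and 2 rose and 0 fell: Odc1, the first enzyme of polyamine synthesis (log2 fold change 1.09, limma adjusted p = 0.0393), and Nolc1, a nucleolar protein (0.74, limma adjusted p = 0.0211). In duodenum all 20 were tested with a median of -0.05, 0 passed and 1 had an unadjusted p under 0.05. Npm1 (mean 181 TPM with CORT, 146 with vehicle) and Odc1 (87.8 and 91.0 TPM) were the most abundant.

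Of 20 genes activated by AP-1, 7 were tested in liver and 16 in duodenum, and 0 passed in either. An unadjusted limma p under 0.05 was found for 1 and 6 of them. Among all genes tested, 3033 of 11699 in liver and 2618 of 13607 in duodenum were under that value. The median log2 fold change was -0.17 in liver and -0.38 in duodenum. By the mean over both groups, Vegfa and Spp1 were the most abundant in liver and Vegfa and Mmp10 in duodenum. Vegfa, an angiogenic factor, was at a mean of 32.8 TPM with CORT and 51.2 with vehicle in liver (limma adjusted p = 0.235) and at 36.3 and 22.4 TPM in duodenum (limma adjusted p = 0.114). Spp1, a secreted phosphoprotein, was at 31.6 and 43.5 TPM in liver (limma adjusted p = 0.379), and Mmp10, a matrix protease, at 18.1 and 24.8 TPM in duodenum (limma adjusted p = 0.506).

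**Figure D4:**
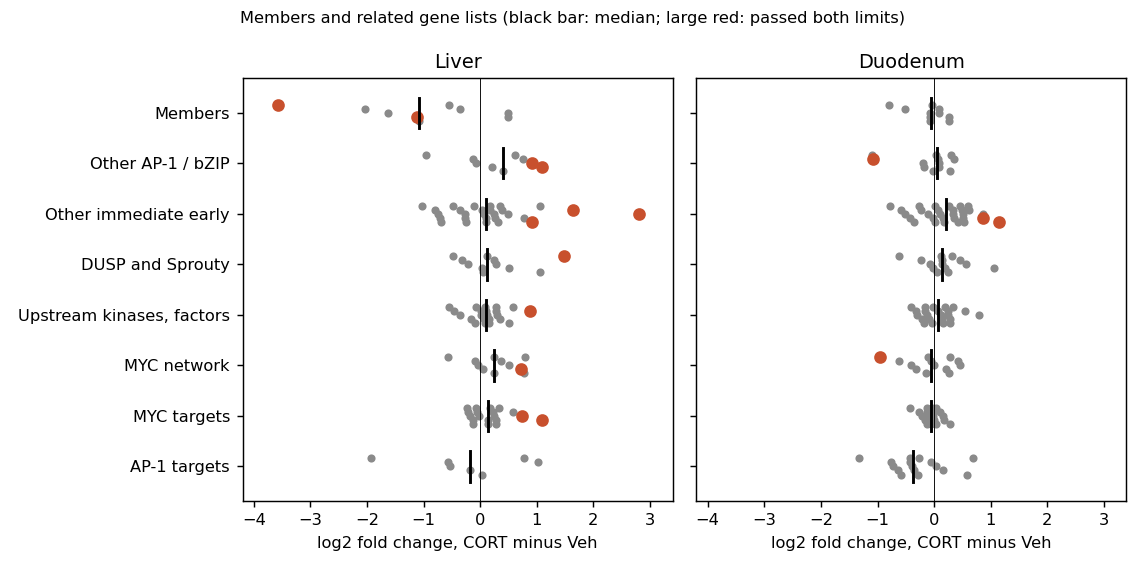
Log2 fold change (CORT minus Veh) of the tested members and of 7 related lists in liver (left) and duodenum (right). The lists are other AP-1, other immediate early, phosphatase and Sprouty (with Errfi1), upstream, MYC partners, MYC targets and AP-1 targets. A black bar marks the median, and large red points mark genes past both limits. The members' median is -1.09 in liver and -0.05 in duodenum, and the medians of these 7 lists lie between -0.38 and 0.40.

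Markers of other cells were summed beside these results, and their part in them was not tested. Of 8 endothelial markers, 8 were tested in liver, 2 rose (Pecam1 and Stab2) and 0 fell, where 4.91% of all genes tested rose. The sum of the 8 was 81.3 to 98.5 TPM with CORT and 29.0 to 76.0 TPM with vehicle. The sum of 10 lymphocyte markers was 1.03 to 2.52 TPM in CORT livers and 4.09 to 11.3 TPM in Veh livers, and 257 to 576 TPM in CORT and 833 to 1039 TPM in Veh duodena, with 0 of 3 and 0 of 9 tested markers passing. Of 10 macrophage and neutrophil markers, 0 of 7 passed in liver and 1 of 7, Clec4f, rose in duodenum, where 1.23% of all genes tested rose. Clec4f was at 0 to 0.15 TPM in Veh duodena and was tested there only through its CORT mean of 7.67 TPM. The sums of these markers were 69.0 to 206 TPM and 96.0 to 154 TPM in CORT and Veh livers and 103 to 184 TPM and 102 to 169 TPM in CORT and Veh duodena. The smooth muscle markers (311 to 500 TPM in CORT and 461 to 917 TPM in Veh duodena), the fibroblast and stellate markers and the bile duct markers had 0 genes that passed in either tissue. The sum of 10 enterocyte markers was 44212 to 48767 TPM in CORT and 25705 to 38335 TPM in Veh duodena, and that of 10 hepatocyte markers, some of which the duodenum also expresses, 16012 to 22080 TPM and 8603 to 12464 TPM, so that neither overlapped between the groups there, as for Jund and for the lymphocyte sum. In liver 1 of the 5 tested enterocyte markers rose, the apolipoprotein gene Apoa4, which hepatocytes also express, and 0 of the hepatocyte markers in either tissue and 0 of the 10 enterocyte markers in duodenum passed. The 13 mitochondrial transcripts held 6.22% to 7.0% of TPM in CORT livers and 7.47% to 7.64% in Veh livers, with 0 of 13 passing. In duodenum they held 9.73% in CORT2, 6.49% in CORT1, 7.16% in CORT3 and 6.77% to 8.08% in the Veh libraries, again with 0 of 13 passing.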

How the data were processed

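RNA-seq of 12 libraries was used, 3 CORT and 3 Veh in liver and in duodenum, grouped by the sample titles. The authors used SeqPrep and Sickle for trimming, HISAT2 for alignment, StringTie for assembly and RSEM for abundances, and deposited TPM values per gene and library, with GRCm39 named in the processing notes and versions not given in the sources used here. TPM holds no depth, so precision rests on 3 libraries per group, and as the labels call these biological replicates without tying them to mice, p-values measure the spread between libraries.

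The columns of both tables were matched to samples by name. Values were transformed to log2(TPM + 1), which understates the change of low genes, a gene was kept if its CORT or its Veh mean reached 1 TPM, and limma 3.58.1 under R 4.3.3 was run on 1 tissue at a time (eBayes with a trend), with Benjamini-Hochberg adjustment over all genes tested. All adjusted p-values are limma's. The treatment by tissue term used all 12 libraries. The members and gene lists were chosen with earlier results of these data known. Of the lists, genes that passed are named, and otherwise the most abundant 2, and for markers only genes that passed. Counting tests were not used because the tables hold TPM. In a test on simulated data with a log2 change of 2 in 200 genes, 175 of 200 were recovered among 11699 liver genes, 170 of 200 among 13607 duodenum genes and 150 of 200 for the treatment by tissue term among 14806 genes, with 9, 7 and 8 unchanged genes called. The simulated noise was independent between genes, and low genes that were to fall were first raised. Recovery of changes as small as the 1.11 of Ier2 in liver was not simulated.

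Alternatives tried were no filter, a pseudocount of 0.1, the replicate number as a block, each library left out, median-ratio scaling, no trend, no limit on fold change and removal of acinar genes, and 2 pairs of libraries left out after seeing the data. Promoter windows were taken by symbol from a RefSeq table.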

Additional observations from a re-analysis of the deposited data

Results flagged for a closer look

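The change with CORT differed between liver and duodenum for 2 members by the treatment by tissue term of limma. For Egr1 the difference (duodenum change minus liver change) was 3.65 on the log2 scale, where all 3 CORT livers lay below all 3 Veh livers and the duodenum groups overlapped. For Ier2 it was 1.04, with the same pattern of overlap. The limma adjusted p was 0.0497 for Egr1 and 0.0370 for Ier2. With 1 library omitted, Egr1 passed in 2 and Ier2 in 3 of 12 fits. Neither passed with no filter on low values, with a replicate block or without duodenum Veh2 and Veh3, and Egr1 did not pass with a pseudocount of 0.1, with no trend or without liver Veh2 and CORT3.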

How the results depend on the processing

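In liver, the number of members that passed moved from 2 to 1 with no filter on low values, to 0 with a replicate block (limma adjusted p = 0.0725 for Egr1 and 0.0549 for Ier2) and to 3 with median-ratio scaling or with Veh2 and CORT3 left out (chosen after seeing the data), and ranged from 0 to 3 with each library left out. The 8 tested members other than Myc kept their direction under all 13 alternatives, and Myc turned to 0.18 without Veh2 and to 0.23 without Veh2 and CORT3, from a range down to -2.01. Over all liver genes the number that passed, 810, became 283 with no filter, 307 with a replicate block, and 247 to 831 with each library left out. In duodenum 0 members passed under any of the 14 alternatives. Over all duodenum genes the number that passed, 292, became 52 with no filter, 62 with a replicate block, 10 with Veh2 and Veh3 left out (chosen after seeing the data), and 66 to 237 with each library left out.

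With each library left out, the duodenum log2 fold change ranged from -0.57 to 0.32 for Fos, from -0.26 to 0.15 for Jun, from -0.28 to 0.10 for Junb, from -0.43 to 0.54 for Egr1, from -0.18 to 0.0276 for Ier2 and from -0.0021 to 0.26 for Ier3. No direction can be given for these. Without Veh2 and Veh3 it was 0.21 for Jun, -0.50 for Egr1 and -0.26 for Ier3. For the treatment by tissue term, 533 genes passed, which became 336 with no filter, 211 with a replicate block, 301 without duodenum Veh2 and Veh3, and 289 to 626 with each library left out. The members that passed this term went from 2 to 1 with a pseudocount of 0.1 and with no trend, to 0 with no filter, with a replicate block and without duodenum Veh2 and Veh3, and ranged from 0 to 3 with each library left out. The difference for Fosb turned to -0.30 with a pseudocount of 0.1 and to -0.0613 without duodenum Veh2 and Veh3 and lay from -0.15 to 0.29 when any library was omitted, and that for Jund ranged from -0.46 to 0.0814.

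Over both tissues, the deviations of CORT and Veh libraries of the same number correlated by between -0.12 and 0.07. For libraries of different numbers the range was -0.14 to 0.13. Whether libraries of the same number were handled together is not given in the sources used here. The cause of the lower counts under the block was not tested. TPM gives no depth, so low members (Fosb, Atf3 and Ier3 in liver) have no known counting error.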
